A study of Mus musculus with 4 samples.

Results

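The cells described here are those of the mouse common bile duct that passed a marker rule for Ly6c2 Ccr2 inflammatory monocytes. Measured values chose them: a cell was selected on 500 or more genes detected, with mitochondrial genes holding 25% or less of its UMIs (unique molecular identifiers, the counted molecules). The rule further asked for at most 3 Epcam UMIs, at least 1 Lyz2 UMI, at most 2 UMIs summed over C1qa, C1qb and C1qc, no Mmp12 UMI and at most 1 Csf3r UMI. These limits were set against epithelium, C1q macrophages, Mmp12 macrophages and neutrophils, and some cells with genes of these types still passed. Finally, a cell needed a UMI of at least 2 of the 4 genes Ly6c2, Ccr2, Plac8 and Ms4a6c. Of 19246 quality-filtered cells among 22968 barcodes, 313 passed, and they are called the gated cells. Their levels of the rule's genes, which chose them, are given only as a description.

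The study profiled single cells of whole micro-dissected, enzymatically dissociated common bile ducts by 10x Genomics 3′ sequencing (version 3 chemistry) in 2 groups. The GOF group is 1 library with the genotype Prom1_BcatGOF, in which the study describes a mosaic Ctnnb1 gain of function. Ctnnb1 encodes β-catenin, the transducer of canonical Wnt signalling. The WT group is 3 wild-type libraries, and both groups were untreated. The labels give no age, sex, strain or Cre driver, and do not say which cells carry the active allele or whether the WT libraries came from separate animals. The p-values therefore measure only the spread between these libraries, which may be technical, and the lone GOF library is assumed to vary like the WT libraries.

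Ly6C-high classical monocytes leave the bone marrow through Ccr2, the receptor of the chemokine Ccl2, and enter injured tissue, where they release cytokines and can mature into macrophages. In blood, some of them convert to Ly6C-low non-classical monocytes, which carry Cx3cr1, the fractalkine receptor, patrol vessel walls and depend on the transcription factor Nr4a1. In the injured liver and biliary tree, both kinds are known as sources of inflammatory signals and of tissue-repairing macrophages.

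The GOF library gave 215 gated cells of 10101. The WT libraries gave 37 of 4562, 36 of 2480 and 25 of 2103 in WT 1, WT 2 and WT 3. The GOF gated cells were deeper, with a median of 6753 UMIs per cell against 3892, 2619 and 2413 in WT 1 to WT 3, and summed to 1749364 UMIs against 171022, 108191 and 99448. Their median mitochondrial share was 2.35% in GOF and 4.97%, 5.94% and 8.37% in WT 1 to WT 3. To set shares of cells with a UMI side by side, every gated cell was downsampled to 2000 UMIs, called thinning, with shallower cells left out, which kept 209 GOF cells and 34, 23 and 17 WT cells. The deposited file headers name different Cell Ranger versions for GOF and WT, so the genotype and the processing cannot be told apart. No barcode of a gated cell was shared between libraries.

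The marker rule was met mostly without the gene that names the population. A Ly6c2 UMI, from the surface protein that marks classical monocytes, was counted in 64 of the 313 gated cells. These were 36 of 215 GOF cells, and 12 of 37, 5 of 36 and 11 of 25 cells of WT 1 to WT 3. After thinning, 10.5% of GOF cells held a Ly6c2 UMI (95% Clopper-Pearson interval 6.72 to 15.5), against 23.5%, 8.70% and 47.1% of WT cells, so the GOF share lay inside the WT range. In epithelium, which should lack the gene, the thinned share was 0.0612% in GOF and 0.0328% to 0.282% in WT. Ly6c2 counts may be shared with its near-identical neighbour Ly6c1. The sum of Ly6c2 UMIs could rest on single cells: 218 of the 251 UMIs of WT 1 were in 1 cell. That cell also held another type's genes, as counted below. Such cells held 48 of 116 Ly6c2 UMIs in GOF, 0 of 7 in WT 2 and 11 of 31 in WT 3. Intervals here cover counting error only.

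The other rule genes carried the gate. The most frequent pair was Ccr2 with Ms4a6c, a member of the membrane-spanning Ms4a family, without the other markers, in 89 of 215 GOF cells and 10, 12 and 2 cells of WT 1 to WT 3. In all, 203 gated cells held exactly 2 markers, 76 held 3 and 34 held all 4. After thinning, Ccr2 was detected in 41.6% of GOF cells and in 70.6%, 56.5% and 29.4% of WT cells. Ms4a6c was detected in 56.5% of GOF cells and in 64.7%, 78.3% and 52.9% of WT cells. Plac8, a cysteine-rich protein of myeloid cells, was detected in 35.4% of GOF cells and in 64.7%, 39.1% and 70.6% of WT cells. Plac8 is not restricted to these cells in the duct: epithelium held it at 703 UMIs per 1e6 UMIs (CPM) in GOF and 714, 465 and 510.5 CPM in WT 1 to WT 3.

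At the edge of the gate, 948 cells met the other limits with 1 marker, 823 in GOF and 34, 47 and 44 in WT. Their Ms4a6c level was 64.0 CPM in GOF and 48.5, 51.3 and 24.7 CPM in WT, while cells with exactly 2 markers held 349 CPM in GOF and 285, 487 and 311 CPM in WT. Chil3, a chitinase-like secreted protein of classical monocytes that the rule did not use, was at 3.23 CPM in the 1-marker cells of GOF and 64.7, 42.8 and 321 CPM in those of WT. In cells with exactly 2 markers it was at 48.7 CPM in GOF and 214, 619.7 and 1216 CPM in WT. At the C1q limit, 256 gated cells had no C1q UMI, 44 had 1 and 13 had 2, and 15 further cells were kept out with 3.

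Some gated cells carried the genes of another cell type. Counting cells with at least 10 UMIs of the markers of another type gave 37 GOF cells and 10, 0 and 5 cells of WT 1 to WT 3, or 52 in all. In GOF these were 13 cells with fibroblast genes, 12 with conventional dendritic cell genes, 11 with epithelial genes, 5 with T cell genes and single cells of other kinds. In WT 1, 8 of the 10 were dendritic, and 1 held 1061 UMIs of Jchain, an immunoglobulin chain of plasma cells. In WT 3, 4 held neutrophil granule genes, and 1 held 8022 UMIs of pancreatic acinar genes among its 34947. These few cells set large parts of the sums: the neutrophil list reached 47145 CPM in WT 3, against 2237 CPM in GOF and 691 and 786 CPM in WT 1 and WT 2. The acinar list reached 81147 CPM in WT 3, against 13.2 CPM in GOF and 158 and 46.2 CPM in WT 1 and WT 2. Without the 52 cells, the neutrophil list was still at 8909 CPM in WT 3, against 499 CPM in GOF and 155 and 786 CPM in WT 1 and WT 2. That list holds S100a8 and S100a9, which the count of 10 UMIs left out and which classical monocytes also express. The conventional dendritic list was still at 621 CPM in WT 1, and the acinar list at 610 CPM in WT 3. The remaining cells are therefore not free of other types' genes. Levels are therefore given for all gated cells and again for the 261 that remain without the 52 (178 in GOF and 27, 36 and 20 in WT), a set trimmed after seeing values. The trimmed set serves as a description, and its tests appear only as an alternative added after seeing the data.

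Among classical monocyte genes that the rule did not use, the GOF share lay under that of each WT library for some and inside the WT range for others. Chil3 was detected in 9.09% of thinned GOF cells (5.56 to 13.8), against 29.4%, 39.1% and 70.6% of WT cells. The groups did not overlap, and among C1q macrophages the share was 1.69% in GOF, 0% in WT 1 and at least 17.3% in WT 2 and WT 3. Ifitm6, an interferon-induced transmembrane family member of monocytes, was detected in 17.7% of GOF cells and 38.2%, 52.2% and 76.5% of WT cells. F13a1, the coagulation factor XIII subunit of monocytes, was detected in 12.0% of GOF cells and in 29.4%, 21.7% and 23.5% of WT cells. Hp, haptoglobin, did not separate the groups, with 61.7% in GOF and 35.3%, 60.9% and 82.4% in WT. Fn1, fibronectin, was detected in 71.8% of GOF cells and in 35.3%, 73.9% and 17.6% of WT cells, and Cd14, the lipopolysaccharide co-receptor, in 64.6% of GOF cells and in 29.4%, 65.2% and 17.6% of WT cells. In both, GOF lay within the WT range.

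Among non-classical monocyte genes, the GOF share lay above that of each WT library for some members and not for others. These shares describe the libraries and were not tested. Cx3cr1 was detected in 35.9% of thinned GOF cells, against 5.88%, 30.4% and 17.6% of WT cells. C1q macrophages held it in 36.5% of GOF cells and in 18.4%, 9.62% and 17.1% of WT cells, so it does not separate the gated cells from macrophages. Adgre4 (EMR4), an adhesion receptor related to F4/80, was detected in 29.7% of GOF cells and in 5.88%, 13% and 11.8% of WT cells. Treml4, a triggering-receptor-like protein of Ly6C-low monocytes, was detected in 15.8% of GOF cells and in 0%, 4.35% and 5.88% of WT cells. Spn (CD43) was detected in 19.6% of GOF cells and in 2.94%, 0% and 17.6% of WT cells, close to the share of WT 3. These genes are not particular to the gated cells either. At full depth in GOF, Adgre4 was detected in 52.1% of C1q macrophages and 53.5% of gated cells. There, Spn was detected in 35.6% and 36.7%, and Treml4 in 25.6% and 35.3%. Itgal, an integrin chain, was at 20.1% in GOF within the WT range of 0% to 21.7%. Ace, angiotensin-converting enzyme, went the other way, with 0.478% in GOF and 2.94%, 4.35% and 11.8% in WT. Thinned to 1000 UMIs instead, Nr4a1 was at 18.2% in GOF, within the WT range of 5.56% to 28%. Eno3 (2.80%, WT 2.78% to 8.33%), Fcgr4 (0.467%, WT 0% to 12%) and Treml4 (7.94%, WT 2.78% to 11.1%) also lay inside the WT range there. Ear2 lay under each WT library, with 3.74% in GOF and 11.1%, 19.4% and 12% in WT. Cx3cr1, Adgre4 and Spn stayed above each WT library. At full depth, at least 3 of 9 non-classical genes were detected in 115 of 215 GOF cells and in 3 of 37, 11 of 36 and 4 of 25 WT cells, an unthinned count that the greater GOF depth can raise.

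WT 1 differed from the other libraries in its dendritic genes. Cd209a, a C-type lectin of monocyte-related dendritic cells, was detected in 29.4% of its thinned cells, against 2.87% in GOF and 8.70% and 5.88% in WT 2 and WT 3. WT 3 differed in S100a8, an alarmin of neutrophils and classical monocytes, with 64.7% of its cells, against 8.13% in GOF and 5.88% and 17.4% in WT 1 and WT 2. The label of Ly6c2 inflammatory monocytes was therefore met in part: Ly6c2 was detected in a minority of the cells of each library, and dendritic, granulocyte and non-classical genes were present to different degrees.

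**Figure D1:**
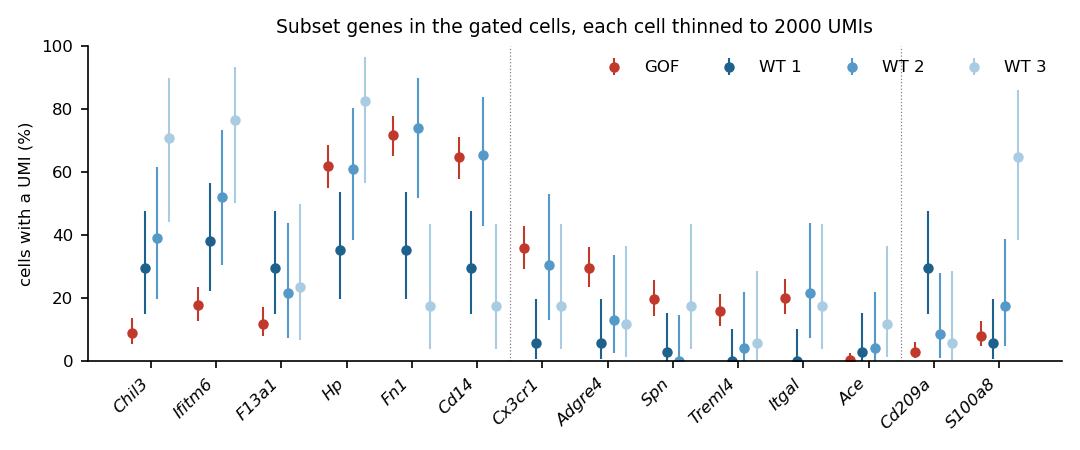
Share of gated cells with a UMI (%) of classical monocyte genes (left), non-classical genes (middle), and Cd209a and S100a8 (right), after thinning each cell to 2000 UMIs. Each point is 1 library, GOF first and then WT 1 to WT 3, and lines are 95% Clopper-Pearson intervals. GOF lies lowest for Chil3 (9.09%) and highest for Adgre4 (29.7%).

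Within the GOF library, the 36 cells with a Ly6c2 UMI and the 179 without one were set side by side for the same subset genes. Cells with Ly6c2 had a median of 5431 UMIs, and cells without it 7107 UMIs. A cell without Ly6c2 had to hold at least 2 of the other 3 markers, while a cell with it needed only 1 more, so the split also shapes their Ccr2, Plac8 and Ms4a6c. F13a1 was detected in 15 cells with Ly6c2 (41.7%) and 28 without (15.6%), and Chil3 in 10 (27.8%) and 20 (11.2%). Other classical genes were less frequent with Ly6c2: Fn1 (69.4% with and 81.0% without), Cd14 (69.4% and 77.1%) and Hp (66.7% and 71.5%). Cx3cr1 was detected in 14 cells with Ly6c2 (38.9%) and 123 without (68.7%), Adgre4 in 12 (33.3%) and 103 (57.5%), and Spn in 6 (16.7%) and 73 (40.8%). Other non-classical genes were more frequent with Ly6c2: Nr4a1 (69.4% with and 64.8% without), Eno3 (16.7% and 5.03%) and Fcgr4 (8.33% and 4.47%). Cd36, a scavenger receptor for lipids, was detected in 5 cells with Ly6c2 and 92 without, and Arg1, arginase 1, in 7 with Ly6c2 and 88 without. Il1b, the cytokine interleukin 1β, was frequent on both sides, in 22 cells with Ly6c2 (61.1%) and 130 without (72.6%). These cells share 1 library, so the split has no test.

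**Figure D2:**
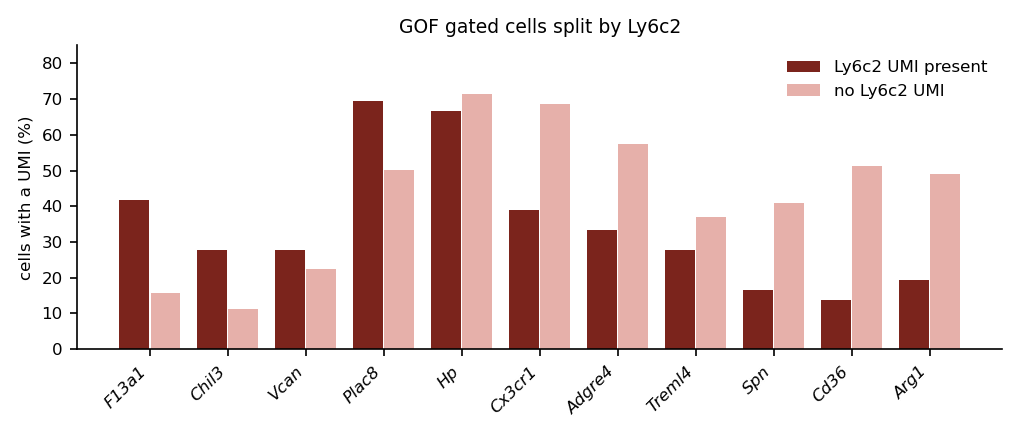
Share of GOF gated cells with a UMI (%) of 11 genes at full depth, for the 36 cells with a Ly6c2 UMI and the 179 without. Cx3cr1 was detected in 38.9% of cells with Ly6c2 and 68.7% without.

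The share of gated cells depended on the denominator. Of all quality-filtered cells they made up 2.13% in GOF (1.86 to 2.43), against 0.811% (0.572 to 1.12), 1.45% (1.02 to 2.00) and 1.19% (0.771 to 1.75) in WT 1 to WT 3. The WT mean was 1.15% ± 0.322 (SD, n = 3), and GOF lay 0.978 percentage points above it. Among cells with Lyz2 and low Epcam, the myeloid denominator, they made up 6.66% in GOF (5.82 to 7.58), against 12.8% (9.14 to 17.2), 13.2% (9.41 to 17.8) and 11.6% (7.67 to 16.7) in WT. That WT mean was 12.5% ± 0.805 (SD, n = 3), and GOF lay 5.86 percentage points below it, a difference of -5.86. GOF stood outside the WT range on both scales, and the exact two-sided permutation test over the 4 libraries gave p = 0.25 for each, the smallest p this design allows. The Lyz2 denominator itself held 3228 cells in GOF and 290, 273 and 215 in WT. Applied after each cell was thinned, the rule gave shares with the same directions. Without cells holding lymphoid or dendritic UMIs, the share of all cells was 1.15% in GOF, inside the WT values of 0.373%, 1.25% and 0.999%. The WT mean was 0.874% there, and the exact p was 0.75.

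**Figure D3:**
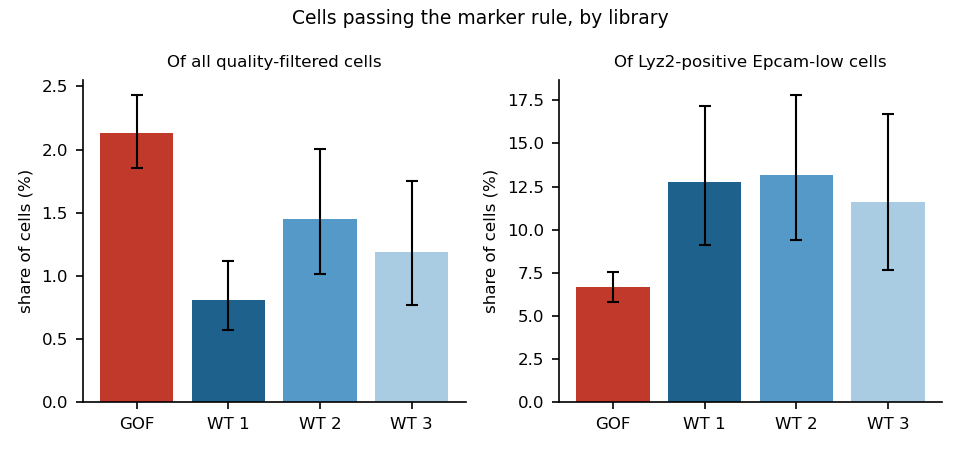
Gated cells as a share (%) of all quality-filtered cells (left) and of cells with Lyz2 and low Epcam (right), per library, GOF first. Bars show the share and lines the 95% Clopper-Pearson interval; GOF is above the WT libraries on the left (2.13%) and under them on the right (6.66%).

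Set beside the 1117 C1q macrophages of the same libraries (804 in GOF and 84, 119 and 110 in WT), the gated cells held other genes at higher levels. Because measured values defined both classes, this contrast is a description in plain CPM, with the gated cells first. Ms4a4c, a relative of Ms4a6c, was at 64.3 CPM in GOF gated cells and 328, 129.5 and 80.5 CPM in WT gated cells, against 7.55 CPM in GOF macrophages and 23.3, 2.69 and 0 CPM in WT macrophages. Napsa, an aspartic protease, was at 299.8 CPM in GOF gated cells and 479.9, 194 and 221 CPM in WT gated cells, against 79.5 CPM in GOF macrophages and 17.5, 12.1 and 32.9 CPM in WT macrophages. Plbd1, a phospholipase-B-like protein of myeloid granules, was at 173 CPM in GOF gated cells and 474, 370.0 and 131 CPM in WT gated cells, against 19.8 CPM in GOF macrophages and 132, 9.40 and 26.3 CPM in WT macrophages. These genes were picked for being higher in the gated cells of each of the 4 libraries, so that agreement was set by the choice. Dendritic cell genes were among the 10 that separated the classes most: Cd209a was at 23.0 CPM in GOF gated cells and 755, 139 and 30.2 CPM in WT gated cells, against 2.85 CPM in GOF macrophages and 19.4, 5.37 and 6.58 CPM in WT macrophages. Xcr1, the chemokine receptor of cross-presenting dendritic cells, was at 24.7 CPM in GOF gated cells and 23.4, 9.25 and 10.1 CPM in WT gated cells, against 0 CPM in GOF macrophages and 1.94, 0 and 0 CPM in WT macrophages. H2-DMb2, an MHC class II loading chain, was the third such gene.

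Resident macrophage genes, picked in the same manner for being lower in the gated cells of each library, ran the other way. Ccl8, a chemokine of resident macrophages, was at 2.87 CPM in GOF gated cells and 0, 9.25 and 0 CPM in WT gated cells, against 549 CPM in GOF macrophages and 789, 512 and 473 CPM in WT macrophages. Folr2, a folate receptor of resident macrophages, was at 1.15 CPM in GOF gated cells and 0, 9.25 and 0 CPM in WT gated cells, against 68.9 CPM in GOF macrophages and 465, 146 and 135 CPM in WT macrophages. Vsig4, the complement receptor of Kupffer cells and other resident macrophages, had no UMI in any gated cell, against 30.6 CPM in GOF macrophages and 461, 607 and 171 CPM in WT macrophages. In gated cells of both groups, Ccl8, Folr2 and Vsig4 were at or near 0. Pf4, a platelet and macrophage chemokine, was at 41.9 CPM in GOF gated cells and 0, 27.8 and 0 CPM in WT gated cells, against 418 CPM in GOF macrophages and 1121, 263 and 418 CPM in WT macrophages.

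Across the genotypes no gene of the gated cells passed the test. By value, 16 of 21 tested inflammatory genes (76.2%) stood above each WT library in GOF, against 35.2% of all genes tested. Ccl2 and Ccl6 did not stand above each, and Chil3 and Ifitm6 stood under each. Counts were summed per library and tested with edgeR's quasi-likelihood test, GOF over WT, at a Benjamini-Hochberg adjusted p under 0.05. It called 0 of 3167 genes (0%), with 488 at an unadjusted p under 0.05. limma-voom also called 0, with 909 at an unadjusted p under 0.05, and DESeq2 called 39 higher and 68 lower. The count turned on WT 3, the library with the granule and acinar cells: without it edgeR called 268 genes higher and 83 lower of 3653. Levels across genotypes are CPM after TMM scaling, and higher or lower describes values, not calls. With the 52 cells left out, an alternative added after seeing the data, edgeR called 247 genes higher and 75 lower of 2523 (9.79% higher and 2.97% lower, 12.8% in all), so the count turns on the choice of cells.

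The list of inflammatory and NF-kB genes had the median log2 fold change farthest above that of all genes among the lists with over 10 genes tested. Of its 32 genes, 21 were tested, their median was 1.88, and in 16 of them (76.2%) GOF stood above each WT library and in 0 beneath each. Over all 3167 genes the median was -0.01, with 1116 above (35.2%) and 769 beneath (24.3%). No member was called. The fibroblast marker list, whose cells also make cytokines, summed to 2438 CPM in GOF gated cells and 977, 120.2 and 604 CPM in WT gated cells. Without the 52 cells it summed to 85.2 CPM in GOF and 0, 120.2 and 109 CPM in WT. The inflammatory list then had a median of 1.41, with GOF above each WT library in 11 of 16 genes (68.75%) and beneath each in 0. Of all genes there, 33.1% lay above and 28.7% beneath. The lists were chosen with earlier results of these data known.

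Il1b was at 992 CPM in GOF and 88.6, 258 and 73.1 CPM in WT 1 to WT 3. GOF exceeded each WT library, with a mean of 139.9 ± 103 CPM in WT (SD, n = 3), a log2 fold change of 2.80 (SE 0.67) and an adjusted p of 0.151. It was detected in 152 of 215 GOF cells and in 3, 13 and 3 WT cells. After thinning the shares were 58.9% in GOF and 5.88%, 30.4% and 11.8% in WT, while C1q macrophages were at 32.9% in GOF and 1.32%, 1.92% and 2.86% in WT, and epithelium at 2.45% in GOF and 0% to 2.03% in WT. The GOF share thus exceeded the WT shares in the macrophages as well. In the trimmed set Il1b was at 1498 CPM in GOF and 78.1, 319 and 123 CPM in WT. The adjusted p of Il1b ran between 0.000256 (without WT 3) and 0.374 over the alternatives.

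Cxcl2, a neutrophil-attracting chemokine, was at 1034 CPM in GOF and 0, 456 and 29.2 CPM in WT 1 to WT 3. GOF stood above each WT library, but the WT libraries lay far apart, WT 1 without a UMI, and the log2 fold change of 2.65 had an SE of 1.63 (adjusted p = 0.462). It was detected in 111 GOF cells and in 0, 8 and 2 WT cells. At full depth in GOF, 71.9% of C1q macrophages held a Cxcl2 UMI, beside 51.6% of gated cells. Ccl2, the ligand of Ccr2, did not separate the groups, with 339 CPM in GOF and 354, 1815 and 29.2 CPM in WT. It rested on few cells, 29 in GOF and 4, 7 and 1 in WT, and on 1 WT 2 cell for 118 of that library's 211 UMIs. In the trimmed set Ccl2 was at 93.5 CPM in GOF and 599, 2241 and 49.3 CPM in WT. Its log2 fold change of -1.12 turned to 0.71 without WT 2. Ccl6, a chemokine of myeloid cells, was at 798 CPM in GOF, inside the WT values of 1055, 1307 and 351 CPM.

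The promoters of Il1b and Cxcl2, whose GOF levels lay above each WT library, and of Chil3, which lay under each, are shown to compare a κB-like pattern. They are the 250 bases before the RefSeq start on GRCm38.p6, printed 5′ to 3′ on the gene's strand, with matches to GGGA, any 4 bases and CC on either strand in capitals.
Il1b: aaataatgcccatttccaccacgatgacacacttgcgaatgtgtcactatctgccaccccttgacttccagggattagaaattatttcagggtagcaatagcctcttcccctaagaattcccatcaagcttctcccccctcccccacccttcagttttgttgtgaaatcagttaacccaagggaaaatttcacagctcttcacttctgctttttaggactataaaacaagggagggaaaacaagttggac
Cxcl2: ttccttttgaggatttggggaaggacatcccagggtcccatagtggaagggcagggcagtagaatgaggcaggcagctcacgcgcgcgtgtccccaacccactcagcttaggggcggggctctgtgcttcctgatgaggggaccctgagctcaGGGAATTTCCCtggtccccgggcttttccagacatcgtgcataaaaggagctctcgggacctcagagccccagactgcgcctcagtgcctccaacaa
Chil3: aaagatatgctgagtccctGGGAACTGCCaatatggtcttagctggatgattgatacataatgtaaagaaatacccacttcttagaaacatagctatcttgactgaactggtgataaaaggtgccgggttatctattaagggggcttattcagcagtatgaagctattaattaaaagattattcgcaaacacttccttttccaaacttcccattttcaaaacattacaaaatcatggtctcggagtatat
They lie at chr2:129371140-129371389 on the minus strand for Il1b, chr5:90903649-90903898 on the plus strand for Cxcl2 and chr3:106167565-106167814 on the minus strand for Chil3. Cxcl2 had 2 overlapping matches, 97 and 96 bases before its start, Chil3 had 1, 231 bases before its start, and Il1b had 0 in this window. The pattern occurs in 5793 of 32851 RefSeq promoters of this length (17.6%), and a match describes the letters only.

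The remaining inflammatory genes are given as examples chosen after their values were seen. Nfkb1, the p105 and p50 NF-kB subunit, was at 469 CPM in GOF and 118, 129 and 87.7 CPM in WT 1 to WT 3. WT varied little around 112 ± 21.4 CPM, and the log2 fold change was 2.05 (SE 0.40, adjusted p = 0.108). Clec4e, the Mincle receptor for mycobacterial and damage ligands, was at 575 CPM in GOF and 29.5, 249 and 43.9 CPM in WT (log2 fold change 2.38, SE 0.94, adjusted p = 0.312). Clec4d, its partner, was at 315 CPM in GOF and 51.7, 86.0 and 14.6 CPM in WT (2.54, SE 0.63, adjusted p = 0.167). Nlrp3, the inflammasome sensor upstream of interleukin 1β release, was at 139 CPM in GOF and 0, 8.60 and 14.6 CPM in WT. For each of these 4 genes GOF exceeded all 3 WT libraries.

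Immediate early genes, which respond within minutes to stimulation and to tissue dissociation, had a median log2 fold change of 0.79 over 16 tested of 24, with GOF above each WT library in 10 (62.5%) and beneath each in 0, against 35.2% and 24.3% of all genes. In the trimmed set 10 of 15 lay above each WT library (66.7%) and 3 beneath each (20%), against 33.1% and 28.7% of all genes there. Named after their values were seen, Atf3, a stress-induced transcription factor, was at 298 CPM in GOF and 44.3, 17.2 and 43.9 CPM in WT (3.10, SE 0.55, adjusted p = 0.0959). Btg2, an antiproliferative early gene, was at 768 CPM in GOF and 184, 94.6 and 205 CPM in WT (2.26, SE 0.49, adjusted p = 0.124). The canonical members varied more: Fos was at 1018 CPM in GOF and 332, 309.6 and 599 CPM in WT, and Junb at 1262 CPM in GOF and 1011, 843 and 921 CPM in WT. Klf2, a quiescence factor, was at 620.4 CPM in GOF, inside the WT values of 753, 1256 and 497 CPM. Among C1q macrophages of GOF, Atf3 was detected in 66.4% at full depth, beside 58.1% of GOF gated cells.

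**Figure D4:**
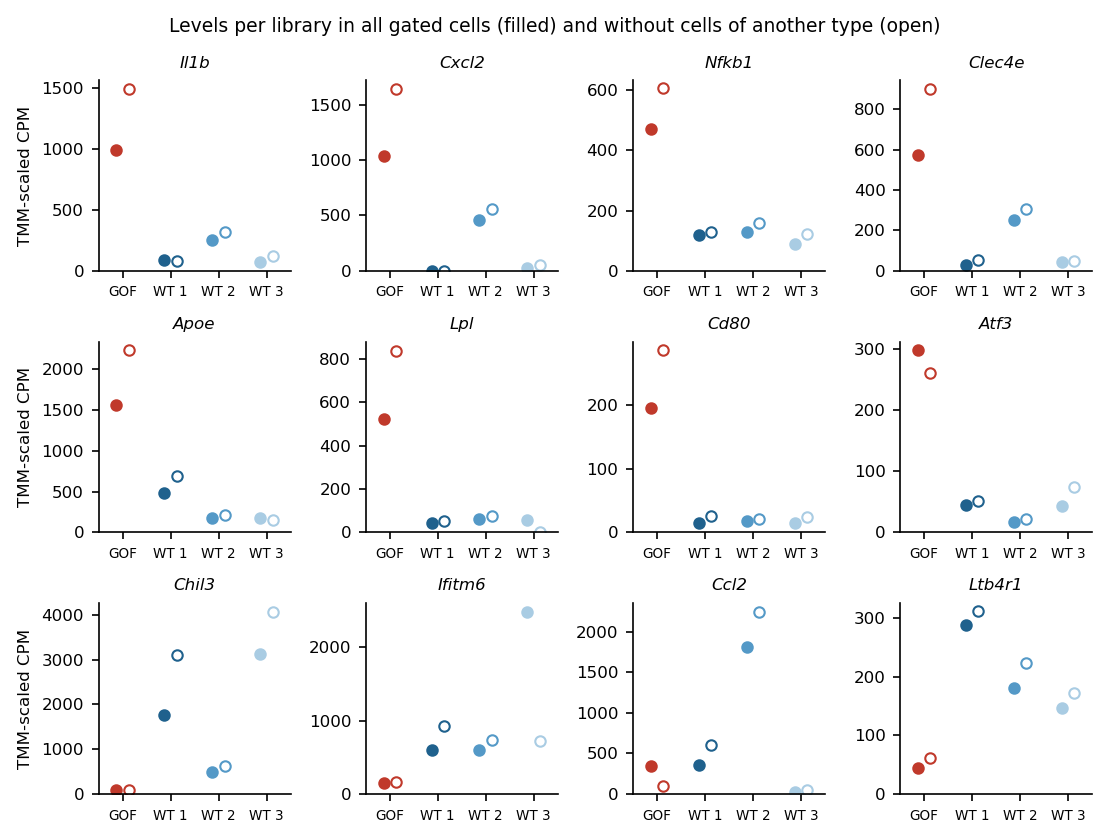
TMM-scaled CPM of 12 genes per library, GOF left of WT 1, WT 2 and WT 3, in all gated cells (filled) and without the 52 cells holding another type's genes (open). Il1b, Nfkb1, Lpl, Cd80 and Atf3 stand above each WT library in both sets, and Chil3, Ifitm6 and Ltb4r1 under each.

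Lpl, Abca1, Cd36, Apoe, Cd80 and Cd86 were chosen after their values were seen, stood above each WT library and did not pass the test, and they speak for no larger group. Lpl, lipoprotein lipase, was at 524 CPM in GOF and 44.3, 60.2 and 58.5 CPM in WT. The WT libraries lay within 54.3 ± 8.74 CPM (SD, n = 3), and the log2 fold change of 3.28 (SE 0.41) had an adjusted p of 0.0672 by edgeR. Its adjusted p ran between 1.01e-06 (without WT 3) and 0.288 over the alternatives. In the trimmed set Lpl was at 838 CPM in GOF against 52.1, 74.3 and 0 CPM in WT. Abca1, the cholesterol exporter, was at 354 CPM in GOF and 36.9, 8.60 and 14.6 CPM in WT (4.03, SE 0.62, adjusted p = 0.0936). Cd36 was at 314 CPM in GOF and 0, 34.4 and 0 CPM in WT, and Apoe, apolipoprotein E, at 1563 CPM in GOF and 487, 172 and 175 CPM in WT (2.48, SE 0.68, adjusted p = 0.196). Apoe is a macrophage gene, at 11258 CPM in GOF macrophages and 7972, 3161 and 10298 CPM in WT macrophages. The summed macrophage marker list in the gated cells was at 1674 CPM in GOF and 743, 333 and 211 CPM in WT. That list includes Apoe, so its sum is not separate from the Apoe value. What macrophage content of the gate adds to the Apoe value was not tested. At full depth, Cd36 was detected in 76.6% of GOF macrophages, beside 45.1% of GOF gated cells.

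Cd80 and Cd86, the ligands of the T cell co-receptor CD28, were both higher in GOF. Cd80 was at 195 CPM in GOF and 14.8, 17.2 and 14.6 CPM in WT (3.62, SE 0.58, adjusted p = 0.0936), and Cd86 at 261 CPM in GOF and 44.3, 8.60 and 14.6 CPM in WT (3.41, SE 0.67, adjusted p = 0.108). Of the MHC class II genes 12 of 14 were tested, with a median log2 fold change of -0.71, GOF above each WT library in 3 (25%) and beneath each in 0, against 35.2% and 24.3% of all genes. H2-Aa was at 2159 CPM in GOF, inside the WT values of 10723, 3019 and 1462 CPM, whose highest is WT 1, the library with 8 dendritic cells in the gate. Cd74, the invariant chain, followed the same order, with 6016 CPM in GOF and 48160.1, 13021 and 5015 CPM in WT.

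Of the classical list, 22 of 24 genes were tested, with a median log2 fold change of -0.30 (-0.43 in the trimmed set), GOF above each WT library in 7 (31.8%) and beneath each in 10 (45.5%). Of all genes 35.2% lay above and 24.3% beneath. Chil3 was at 86.6 CPM in GOF and 1756, 499 and 3129 CPM in WT 1 to WT 3. GOF lay under each WT library, with a log2 fold change of -4.37 (SE 1.35, adjusted p = 0.229), and with 93.5 CPM in GOF against 3099, 616 and 4069 CPM in WT in the trimmed set. The adjusted p of Chil3 ran between 5.69e-06 (without WT 3) and 0.375 over the alternatives, and its reads may be shared with the near-identical Chil4. Ifitm6 was at 143 CPM in GOF and 598, 593 and 2485 CPM in WT (-3.09, SE 1.20, adjusted p = 0.303), and without the 52 cells WT 3 came down to 715 CPM beside 164 CPM in GOF and 925 and 733 CPM in WT 1 and WT 2. Of the members with the highest levels, S100a6, a calcium-binding protein, was at 1940.1 CPM in GOF and 5379.8, 4249 and 4196 CPM in WT, and Ifitm3, an interferon-induced antiviral protein, at 1888 CPM in GOF and 5254, 3002 and 2193 CPM in WT. Fn1 was at 4863 CPM in GOF and 539, 3561 and 614 CPM in WT, and S100a4, a relative of S100a6, was at 1506 CPM in GOF and 686, 636 and 380.1 CPM in WT.

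The list of adhesion and chemotaxis receptors had a median log2 fold change of 0.18 over 19 tested of 21, with GOF above each WT library in 8 (42.1%) and beneath each in 4 (21.1%), against 35.2% and 24.3% of all genes. In the trimmed set its median was 0.71, with 9 above (50%) and 3 beneath (16.7%) of 18, against 33.1% and 28.7% of all genes there. Ltb4r1 and Ccr1, named after their values were seen, are 2 attraction receptors at which GOF lay under each WT library. Ltb4r1, the leukotriene B4 receptor, was at 44.1 CPM in GOF and 288, 181 and 146 CPM in WT (-2.23, SE 0.59, adjusted p = 0.181). Ccr1, a receptor of several inflammatory chemokines, was at 44.1 CPM in GOF and 192, 206 and 102 CPM in WT (-1.94, SE 0.58, adjusted p = 0.216). Ccr2, a rule gene given with no test, was at 279 CPM in GOF, inside the WT values of 937, 645 and 205 CPM. Fcgr3, an activating receptor for IgG, was at 97.6 CPM in GOF and 531, 318 and 161 CPM in WT (-1.81, SE 0.73, adjusted p = 0.318).

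The non-classical list had a median log2 fold change of 0.93 over 13 tested of 15, with GOF above each WT library in 7 (53.8%) and beneath each in 4 (30.8%), against 35.2% and 24.3% of all genes. In the trimmed set the median was 0.28, with 5 above (38.5%) and 4 beneath (30.8%), near the 33.1% and 28.7% of all genes there. The summed level of the 10 non-classical marker genes did not separate the groups, with 1136 CPM in GOF and 357, 1156 and 745 CPM in WT, and 1393 CPM in GOF and 434, 1156 and 1481 CPM in WT in the trimmed set. Adgre4 was at 212 CPM in GOF and 44.3, 103 and 73.1 CPM in WT (1.54, SE 0.53, adjusted p = 0.267). Spn was at 126 CPM in GOF and 36.9, 25.8 and 73.1 CPM in WT (1.57, SE 0.64, adjusted p = 0.321), and Cx3cr1 at 259 CPM in GOF and 81.2, 198 and 87.7 CPM in WT (1.07, SE 0.57, adjusted p = 0.397). Ear2, a ribonuclease of Ly6C-low monocytes, was at 70.9 CPM in GOF and 148, 206 and 161 CPM in WT (-1.28, SE 0.48, adjusted p = 0.294). Thinned to 2000 UMIs, its share did not show this order, with 8.13% of cells in GOF and 5.88%, 21.7% and 5.88% in WT. Thinned to 1000 UMIs, its share did show this order, with 3.74% in GOF and 11.1%, 19.4% and 12% in WT. In WT 3 the Ear2 level rested on 4 cells, 1 of which held 54.5% of the UMIs. Cebpb, the transcription factor C/EBPβ that Ly6C-low monocytes need, was at 1392 CPM in GOF and 1653, 3156 and 2105 CPM in WT, and Cd9, a tetraspanin, at 623 CPM in GOF, inside the WT values of 465, 1367 and 175 CPM. Spi1, the myeloid lineage factor PU.1, was level across the libraries, with 552 CPM in GOF and 509, 516 and 497 CPM in WT.

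**Figure D5:**
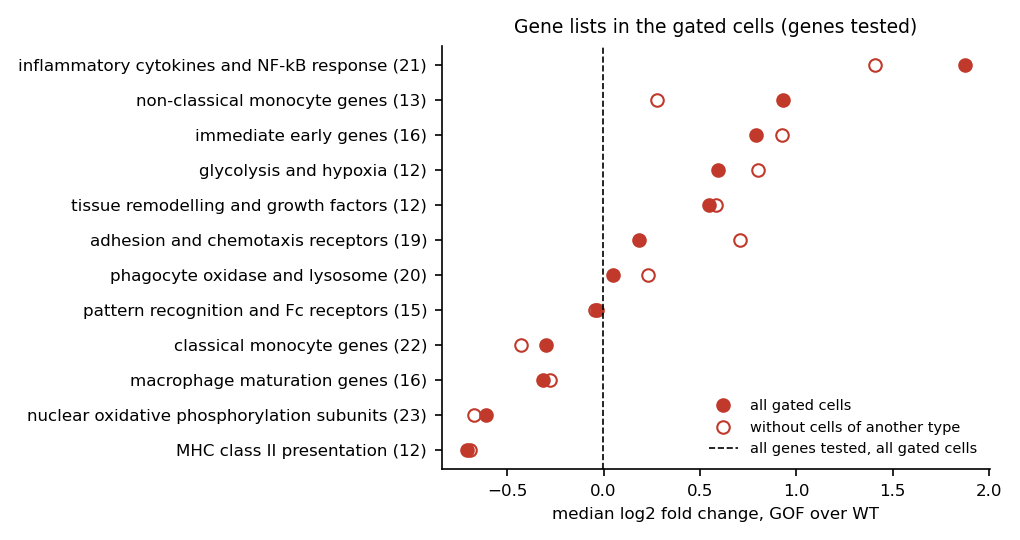
Median log2 fold change, GOF over WT, of 12 gene lists in all gated cells (filled) and without the 52 cells holding another type's genes (open), with the number of genes tested in brackets. The dashed line marks the median of all genes tested (-0.01), and the inflammatory list lies at 1.88.

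All 23 listed genes of the respiratory chain were tested and none was called. Their median log2 fold change was -0.61, with GOF beneath each WT library in 17 (73.9%) and above each in 3 (13%), against 24.3% beneath and 35.2% above of all genes. Ndufa1, a complex I subunit, was at 145 CPM in GOF and 428, 464 and 366 CPM in WT (-1.53, SE 0.46, adjusted p = 0.219), and Cox7c, a cytochrome oxidase subunit, at 580.3 CPM in GOF and 1129, 1479 and 1243 CPM in WT (-1.15, SE 0.63, adjusted p = 0.409). Atp5e, a subunit of ATP synthase, was at 627 CPM in GOF and 1255, 1075 and 906 CPM in WT. Glycolytic genes had a median of 0.59 over 12 tested of 20, above each WT library in 4 (33.3%) and beneath each in 3 (25%), near the shares of all genes, and Gapdh, at 1624 CPM in GOF, lay inside the WT values of 1557, 2752 and 1667 CPM, while Eno1, enolase 1, was at 293 CPM in GOF and 613, 2305 and 1038 CPM in WT. The medians of other lists were as follows: pattern recognition and Fc receptors at -0.03 over 15, oxidase and lysosome at 0.05 over 20, remodelling at 0.55 over 12 and macrophage maturation at -0.31 over 16. Of 30 interferon genes 3 were tested, with a median of -0.17, and of 16 cell cycle genes 2 were tested, with a median of -2.59. Among members of these lists with the highest levels, GOF stood above each WT library for Cyba and Cd44, under each for Tyrobp and Lgals3 and inside the WT values for Fcer1g, Ctss and Itgb2. Fcer1g, the Fc receptor γ chain, was at 2742 CPM in GOF and 2398, 3234 and 2778 CPM in WT, and Tyrobp, the adaptor DAP12, at 2145 CPM in GOF and 3277, 2675 and 2471 CPM in WT. Cyba, a subunit of the phagocyte oxidase, was at 2339.8 CPM in GOF and 1919, 1599.7 and 1345 CPM in WT, and Ctss, cathepsin S, at 1381 CPM in GOF and 2362, 2185 and 1053 CPM in WT. Lgals3, galectin 3, was at 1055 CPM in GOF and 1697, 1840.5 and 1623 CPM in WT, and Cd44, the hyaluronan receptor, at 536 CPM in GOF and 177, 361 and 219 CPM in WT (1.08, SE 0.50, adjusted p = 0.351). Spp1, osteopontin, was at 1342 CPM in GOF and 51.7, 1041 and 43.9 CPM in WT, so WT 2 stood near GOF. Itgb2, the common chain of leukocyte integrins, was at 453 CPM in GOF and 325, 602 and 263 CPM in WT. Bst2, the antiviral protein tetherin, was at 303 CPM in GOF and 339, 146 and 58.5 CPM in WT, and Irf7, the interferon regulatory factor, at 27.9 CPM in GOF and 111, 60.2 and 29.2 CPM in WT. Both cell cycle genes tested, Rrm2 and Ccnb2, had no UMI in WT 1, and Rrm2 was at 12.8 CPM in GOF and 0, 43.0 and 205 CPM in WT.

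None of the 10 Wnt feedback genes had enough counts to be tested. The Wnt target Axin2 had a UMI in 0.478% of thinned GOF cells and in 0% of the cells of each WT library. At full depth, Axin2 was in 6 GOF cells and Znrf3 in 25, with 0 in each WT library. Nkd1 was in 7 GOF cells and in 1, 0 and 1 cells of WT 1 to WT 3. The greater depth and cell number of GOF can raise these counts. Ctnnb1 itself was at 86.6 CPM in GOF and 66.4, 103 and 175 CPM in WT, and a 3′ count does not show the active allele.

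Fold changes moved with the length of a gene's introns. The 835 tested genes with at most 5 kb of intron had a median log2 fold change of -0.38, the 2332 longer ones 0.18, and the 419 with over 100 kb 1.87. In the trimmed set these medians were -0.41 over 692 genes, 0.08 over 1831 and 1.88 over 295. The part of intron length in the genes called in the trimmed set was not tested. Whether intronic reads were counted is not given in the sources used here. Il1b (4663 bases of intron), Clec4e (3117), Btg2 (1208), Apoe (942) and Spn (911) are under 5 kb, while Abca1 (118746), Adgre4 (100188), Cx3cr1 (163759), Cd36 (103522) and Nfkb1 (94832) are long, and the part of intron length in the values of the long genes was not tested. Refitted on genes with at most 5 kb of intron, edgeR called 0 of 862, with 89 at an unadjusted p under 0.05.

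The difference between genotypes was also compared between the gated cells and the C1q macrophages of the same libraries, with library as a block. It differed in 4 of 7578 genes (0.0528%), 2 of them higher and 2 lower in the gated cells, with 196 genes at an unadjusted p under 0.05. DESeq2 and limma-voom called 0 in this comparison. Of these 4 genes Ear2 was carried by the most gated cells, 37 in GOF and 8, 9 and 4 in WT. It was at 70.1 CPM in GOF gated cells and 117, 222 and 111 CPM in WT gated cells, while macrophages held 55.3 CPM in GOF and 5.83, 5.37 and 9.86 CPM in WT, an interaction of -4.36 on the log2 scale (SE 0.68, adjusted p = 0.0435). The Ear2 level was lower in GOF than in each WT library in the gated cells and higher than in each in the macrophages. Its GOF share in the gated cells lay inside the WT range when thinned to 2000 UMIs. When thinned to 1000 UMIs, that share lay under each WT library. The other called genes rested on few cells: Cxcl13 had UMIs in 6 GOF gated cells with 153 of 182 UMIs in 1 of them, Tagln in 9, and all 613 Iglv1 UMIs of WT 1 lay in 1 cell. For Il1b the interaction was -1.34 (SE 0.68) and was not called, so a difference between gated cells and macrophages in its GOF value was not shown.

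Against the epithelium, the difference between genotypes differed in 152 of 14089 genes (1.08%), 58 higher and 94 lower in the gated cells, with 937 at an unadjusted p under 0.05. Chil3 was among the lower ones, at -3.01 (SE 0.70, adjusted p = 0.00318), as were Ms4a4c at -5.24 (SE 0.96, adjusted p = 2.61e-05) and Ear2 at -3.37 (SE 0.83, adjusted p = 0.0083). These 3 genes are named after their values were seen, and the epithelium held them near 0: Ms4a4c was at 0.675 CPM in GOF and 0.0264, 0.168 and 0 CPM in WT. For Il1b the interaction with epithelium was 1.17 (SE 0.65) and was not called.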

How the data were processed

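Single-cell 3′ libraries of the mouse common bile duct, 1 GOF and 3 WT, were analysed from the deposited count matrices, which hold UMI counts per gene and barcode with no normalization, per the file headers. The submitters' processing notes name Cell Ranger 7.1 and mm10, while the file headers name Cell Ranger 7.0.0 for GOF and 3.0.2 for WT. Whether intronic reads were counted is not given in the sources used here. Feature lists held 32285 genes in GOF and 31053 in WT, and the 30406 shared by identifier were used. Of 322 listed genes, 4 had no single shared identifier and are not analysed here.

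The members and the gene lists were chosen with earlier results of these data known. Gated cells were summed per library (1749364 UMIs in GOF and 171022, 108191 and 99448 in WT) and tested in R 4.3.3 with edgeR 4.0.16 (quasi-likelihood test, TMM scaling, filterByExpr, Benjamini-Hochberg threshold 0.05), with DESeq2 1.42.0 and limma 3.58.1 (voom) as alternatives. The 11 rule genes stayed in the fit and out of the counts. Interactions with C1q macrophages (at least 3 C1q UMIs) and epithelium (at least 4 Epcam UMIs) used library as a block. Shares have 95% Clopper-Pearson intervals (scipy 1.17.1) and exact permutation tests over the 4 libraries. Cells were thinned to 2000 UMIs with a fixed seed. Scrublet (scanpy 1.11.5) marked few doublets on its own, so doublets were kept, and the cells with the highest scores, at 0.8% per 1000 barcodes, were left out as an alternative. Tests were checked on simulated data, with changes set in genes with higher counts. For GOF over WT, 25% of log2 changes of 2 and 52% of log2 changes of 3 were recovered. For the interaction with C1q macrophages these were 13% and 47%, and for that with epithelium 3% and 19%. Of the genes left unchanged, 1.35% were called for GOF over WT, 0.0677% for the interaction with C1q macrophages and 0.0432% for that with epithelium. A gene that was not called may therefore still differ, and a called gene may be unchanged. The named genes are the rule genes, called genes by size of change, up to 4 called members of a list or else its 2 with the highest level, the 5 largest interactions each way, subset markers, and the 10 genes that most separate the gated cells from macrophages; other genes are said to be named after their values were seen. Promoters come from RefSeq (GRCm38.p6), with Il1b, Cxcl2 and Chil3 matched by symbol.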

Additional observations from a re-analysis of the deposited data

Results flagged for a closer look

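In 14 results the difference between GOF and WT in the gated cells itself differed from that in another cell class of the same libraries, by an interaction term with library as a block. Against C1q macrophages these were Cxcl13 (13.20 on the log2 scale, adjusted p = 0.00736), Tagln (11.59, adjusted p = 0.0435), Iglv1 (-16.31, adjusted p = 0.0435) and Ear2 (-4.36, adjusted p = 0.0435). Against epithelium, those with the highest values were Ccl5 (13.79, adjusted p = 0.00239), Mast4 (13.60, adjusted p = 7.71e-05), Sfrp1 (13.31, adjusted p = 0.0187), Cxcl13 (13.10, adjusted p = 0.00757) and Tagln (12.41, adjusted p = 0.0349). Those with the lowest were Iglv1 (-13.55, adjusted p = 3.63e-09), Pla2g1b (-11.89, adjusted p = 1.67e-06), Gp2 (-11.63, adjusted p = 4.52e-06), Spink1 (-11.54, adjusted p = 2.61e-05) and Klk1 (-10.35, adjusted p = 0.000568). Fitted values of this size set counts against zeros, depend on the prior count and are no bound.

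Ear2 aside, the counts lay in few cells. Sfrp1, a secreted Wnt antagonist of stromal cells, had 112 of its 118 GOF UMIs in 1 cell. Ccl5, a chemokine of T and NK cells, was in 10 GOF cells with 161 UMIs, Mast4, a kinase, in 34 with 218, and Tagln, a smooth muscle protein, in 9 with 215. The pancreatic acinar genes Pla2g1b (258 of 260 UMIs), Spink1 (144 of 145) and Klk1 (279 of 281) lay almost wholly in 1 cell of WT 3, as did all 259 UMIs of Gp2. With 3 libraries in WT and 1 in GOF, no library could be tested as standing apart.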

How the results depend on the processing

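The GOF library has no replicate, so its values have no replicate check. No paired analysis was possible because GOF carries no replicate number to pair with WT 1 to WT 3. For GOF against WT, where edgeR called 0 genes, it called 51 without TMM factors (whose removal moved the median of all genes by 0.31), 567 with no low-count filter, 17 without the highest doublet scores, 47 with at least 3 markers, 76 without cells holding lymphoid or dendritic UMIs and 322 without the 52 cells of another type, the last added after seeing the data, and DESeq2 called 107. Leaving out 1 WT library gave 0 to 351 calls, the highest without WT 3. For the interaction with C1q macrophages, with 4 calls, the counts were 0 by DESeq2, 0 by voom and 0 on genes with at most 5 kb of intron, 21 with no filter, 20 with 3 markers, 26 without lymphoid or dendritic cells, 34 without cells of another type and 11 to 71 without 1 WT library. For the interaction with epithelium, with 152 calls, they were 39 by DESeq2, 650 by voom, 57 with 3 markers, 32 on the short-intron genes and 92 to 161 without 1 WT library. Without the library block, both interactions gave 0 calls. Both shares of gated cells kept their direction against the WT mean, with exact p between 0.25 and 0.75. Without cells holding lymphoid or dendritic UMIs, the GOF share of all cells lay inside the WT range. Some named genes turned sign: Cd9 (-0.11) to 0.0068 without TMM factors, 0.25 by voom, between -0.61 and 0.91 without 1 WT library, 0.60 with 3 markers, 0.77 without lymphoid or dendritic cells and 0.28 without cells of another type; Bst2 (0.69) to -0.014 and -0.41 under these last settings; Ccl6 (-0.19) to 0.024 without TMM factors, between -0.62 and 0.15 without 1 WT library, 0.21 with 3 markers, 0.029 without lymphoid or dendritic cells and 0.084 on short-intron genes; Ccl2 (-1.12) to between -1.73 and 0.71 without 1 WT library; Klf2 (-0.43) to 0.089 with 3 markers; Itgb2 (0.18) to between -0.082 and 0.59 without 1 WT library and -0.19 with 3 markers; and Fcer1g (-0.03) to 0.26 without TMM factors, 0.093 with no filter, between -0.18 and 0.060 without 1 WT library, 0.28 without lymphoid or dendritic cells, 0.22 on short-intron genes and 0.17 without cells of another type. The causes were not tested. The WT libraries, with 25 to 37 gated cells, and the single GOF library both limit precision.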

Other observations

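Some genes differed between GOF and WT alike in the gated cells, the C1q macrophages and the epithelium, in plain CPM and with no test. Atp6v0c, a proton pump subunit, had 991 UMIs in 192 GOF gated cells and 0 in WT gated cells, while macrophages held 833 CPM in GOF and 3.89, 8.06 and 3.29 CPM in WT, and epithelium held 257 CPM in GOF and 0.660, 1.68 and 2.31 CPM in WT. Polr2l, an RNA polymerase subunit, was at 31.6 CPM in GOF gated cells and 222, 499.5 and 413 CPM in WT gated cells, at 26.9 CPM in GOF macrophages and 152, 260.5 and 214 CPM in WT macrophages, and at 23.0 CPM in GOF epithelium and 135, 178 and 135 CPM in WT epithelium. The 2 groups' files list different reference gene sets, and the part of the reference in these values cannot be told apart from the genotype.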
